A study of Mus musculus with 28 samples.

Results

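The 9 genes described here (Mrc1, Cd163, Folr2, Cbr2, F13a1, Chil3, Retnla, Il10 and Mgl2) were taken by name, as genes of resident and alternatively activated macrophages, from the 29068 genes of a count table of mouse skin wounds. The rule uses names and no expression value. All 9 passed the filter on low counts, as did 18107 genes in total. The study sequenced RNA of dorsal skin of C57BL/6J mice (MLKL+/+ in the study, both sexes, 8 weeks old) left to heal naturally after a full-thickness punch excision. The 28 libraries fell into 7 groups of 4, labelled Day0 (the control), Day3, Day5, Day7, Day10, Day12 and Day14. The labels place the earliest group at day 0, whereas the methods of the study name day 1 after injury as its first time point and its legends count the day of wounding itself as day 1. Day 0 is therefore used below only as the label, and whether those libraries are of intact or freshly wounded skin was not settled by these sources. The labels do not say that the 4 libraries of a day came from separate animals, so p-values measure the spread between these libraries, which may be technical. The tissue was the whole wound site with scab and epithelial margin, and in such bulk RNA fewer cells of a type and less RNA per cell cannot be told apart.

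Macrophages that live in healthy dermis line vessels, take up debris and carry scavenging receptors. Wounding brings in monocytes, which become inflammatory macrophages and later cells that favour repair. IL-4 and IL-13 signal through the receptor chain IL-4Rα and the transcription factor STAT6 and switch on the genes known in the mouse as signs of alternative activation, Chil3, Retnla, Mrc1 and Mgl2 among them. Mrc1 encodes the mannose receptor CD206, Cd163 the haptoglobin-haemoglobin scavenger receptor, and Folr2 the folate receptor beta. Mgl2 encodes the galactose-type lectin CD301b, found on macrophages and on dermal dendritic cells. Cbr2 is a carbonyl reductase, and F13a1 the A chain of coagulation factor XIII, which crosslinks fibrin. Chil3 (Ym1) and Retnla (RELMα, FIZZ1) are secreted proteins, a chitinase-like lectin and a resistin-like factor. Il10 encodes the anti-inflammatory cytokine interleukin-10.

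In the mouse genome build GRCm38.p6 as annotated by RefSeq, the genes lie on 8 chromosomes: Mrc1 at chr2:14229414-14332023, Cd163 at chr6:124304636-124330529, Folr2 at chr7:101839988-101857190, Cbr2 at chr11:120729485-120732025, F13a1 at chr13:36867178-37050244, Chil3 at chr3:106147554-106167564, Retnla at chr16:48842609-48844461, Il10 at chr1:131019845-131024970 and Mgl2 at chr11:70130125-70137542. Promoter sequence, from 250 bases before to 50 bases after the start of transcription, was at hand from RefSeq for 8 of the 9. It was searched on both strands for 4 motifs: the STAT6 site (TTC and GAA with 4 bases between), the general STAT site (TTCNNNGAA), a PU.1 site (GAGGAAGT) and a MAF site (TGCTGAC). Retnla held 3 of the 4, the most of any of these promoters, and is printed here with Chil3, the other secreted product of alternative activation, because the 2 moved in opposite directions against day 0 on days 3 to 12. The 250 bases before each start are given 5′ to 3′ on the gene's strand, with motif matches in capitals (a match on the opposite strand appears as its reverse complement).
Retnla, chr16:48842359-48842608, plus strand: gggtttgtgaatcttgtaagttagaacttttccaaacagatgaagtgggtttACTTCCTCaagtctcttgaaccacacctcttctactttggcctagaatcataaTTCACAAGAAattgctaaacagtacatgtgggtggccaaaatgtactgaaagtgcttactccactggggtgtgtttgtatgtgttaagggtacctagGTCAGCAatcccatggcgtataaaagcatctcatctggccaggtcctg
Chil3, chr3:106167565-106167814, minus strand: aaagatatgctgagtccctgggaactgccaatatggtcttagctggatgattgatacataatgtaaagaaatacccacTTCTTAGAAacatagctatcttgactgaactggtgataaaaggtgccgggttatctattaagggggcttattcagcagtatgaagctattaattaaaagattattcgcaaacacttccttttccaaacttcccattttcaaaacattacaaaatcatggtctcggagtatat
Cbr2, chr11:120731975-120731997, minus strand, from 25 bases after the start: TTCGGAAGAAgctggtGTCAGCA
In Retnla the capitals mark a PU.1 match 198 bases before the start, a STAT6 match at 145 and a MAF match at 48. Chil3 held only the general STAT match, 172 bases before the start. Cbr2 held STAT6 and MAF matches within the 23 bases printed. The remaining match was to PU.1, 15 bases after the downstream of 2 F13a1 starts. Of 32544 promoters of the same length, 6.98% held the STAT6 site, 8.33% the general STAT site, 3.11% the PU.1 site and 4.65% the MAF site. These matches are letters in a window, and binding was not measured.

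Total counts ranged from 36706513 to 40655764 per library, and no 2 libraries of a day were alike within sampling noise. The day 0 libraries stood apart from the rest: their biological coefficient of variation was 26.5%, against 5.77% to 10.8% within the later days. Replicates 1 and 4 differed from replicates 2 and 3. The summed level of 5 skeletal muscle markers was 26363 and 27464 CPM (counts scaled to the library total) in replicates 1 and 4, and 16381 and 16701 in replicates 2 and 3. The sum of 5 fibroblast markers went the other way, at 17644 and 10289 against 38286 and 36755 CPM. The summed level of 16 macrophage genes in general was 3212 and 2359 in replicates 1 and 4 and 2993 and 3054 CPM in replicates 2 and 3, but 8 of the 16 followed the division singly, 2 higher in replicates 2 and 3 and 6 lower. Of the 9 genes, 8 did: Mrc1, Cd163, Folr2, Cbr2, F13a1, Retnla and Mgl2 were higher in both of replicates 2 and 3 than in either of replicates 1 and 4, and Chil3 was lower in both. Of all genes tested 62.8% divided in 1 way or the other. The part of tissue composition in this was not tested. Values against day 0 are therefore also given with replicates 2 and 3 alone or replicates 1 and 4 alone as the control, a check chosen after seeing the data.

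**Figure D1:**
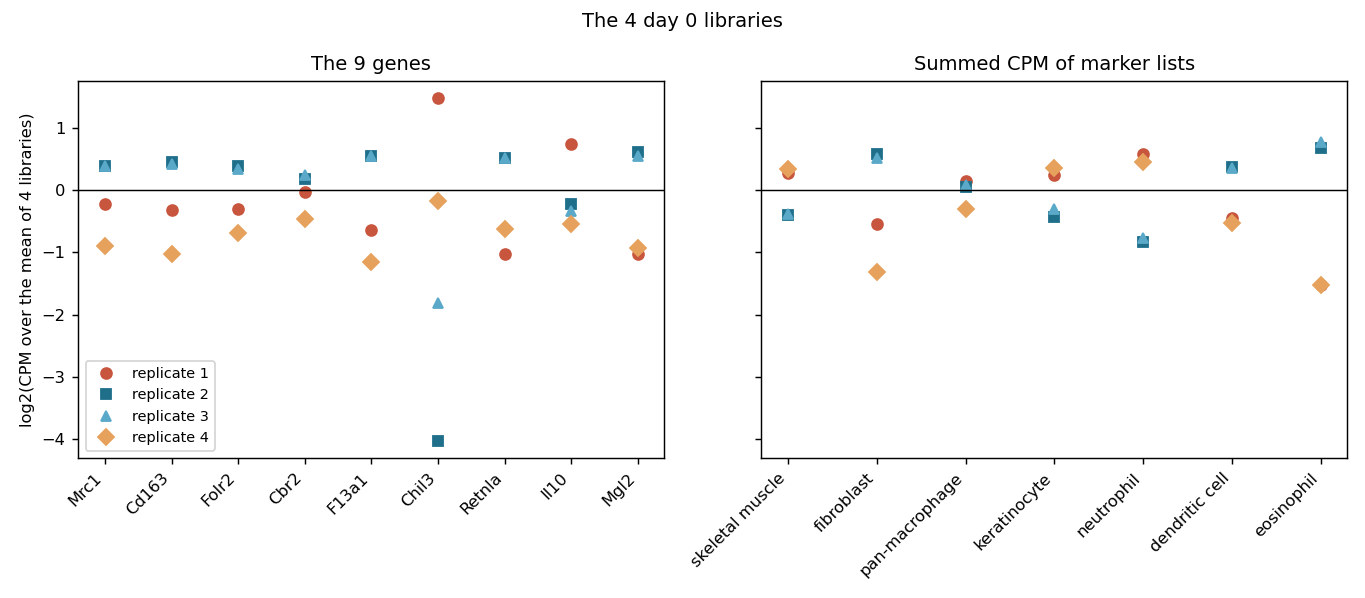
The 4 day 0 libraries, each point the log2 of a CPM value over the mean of the 4 libraries, for the 9 genes and for sums of marker genes. Mgl2, F13a1 and Retnla sit above the mean in replicates 2 and 3 and below it in replicates 1 and 4, while Chil3 is highest in replicate 1 and lower in both of replicates 2 and 3 than in either other, with 172, 4, 18 and 52 counts in replicates 1 to 4.

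All 9 genes varied over the time course in a joint test of the 6 later days (edgeR, adjusted p from 9.64e-19 to 1.38e-07), as did 89.5% of all genes tested. The genes did not share 1 course. Mrc1, Cd163, Folr2, Cbr2, F13a1 and Il10 had their highest mean level on day 3 or 5 and their lowest on day 10 or 14. Chil3 was low on day 0 and peaked on day 5. Retnla and Mgl2 were highest in the day 0 libraries and lower on every later day. Levels below are FPKM (fragments per kilobase of transcript, scaled to library size), which correct for length, and log2 fold changes are edgeR estimates from counts, later day minus earlier day, ± SE.

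**Figure D2:**
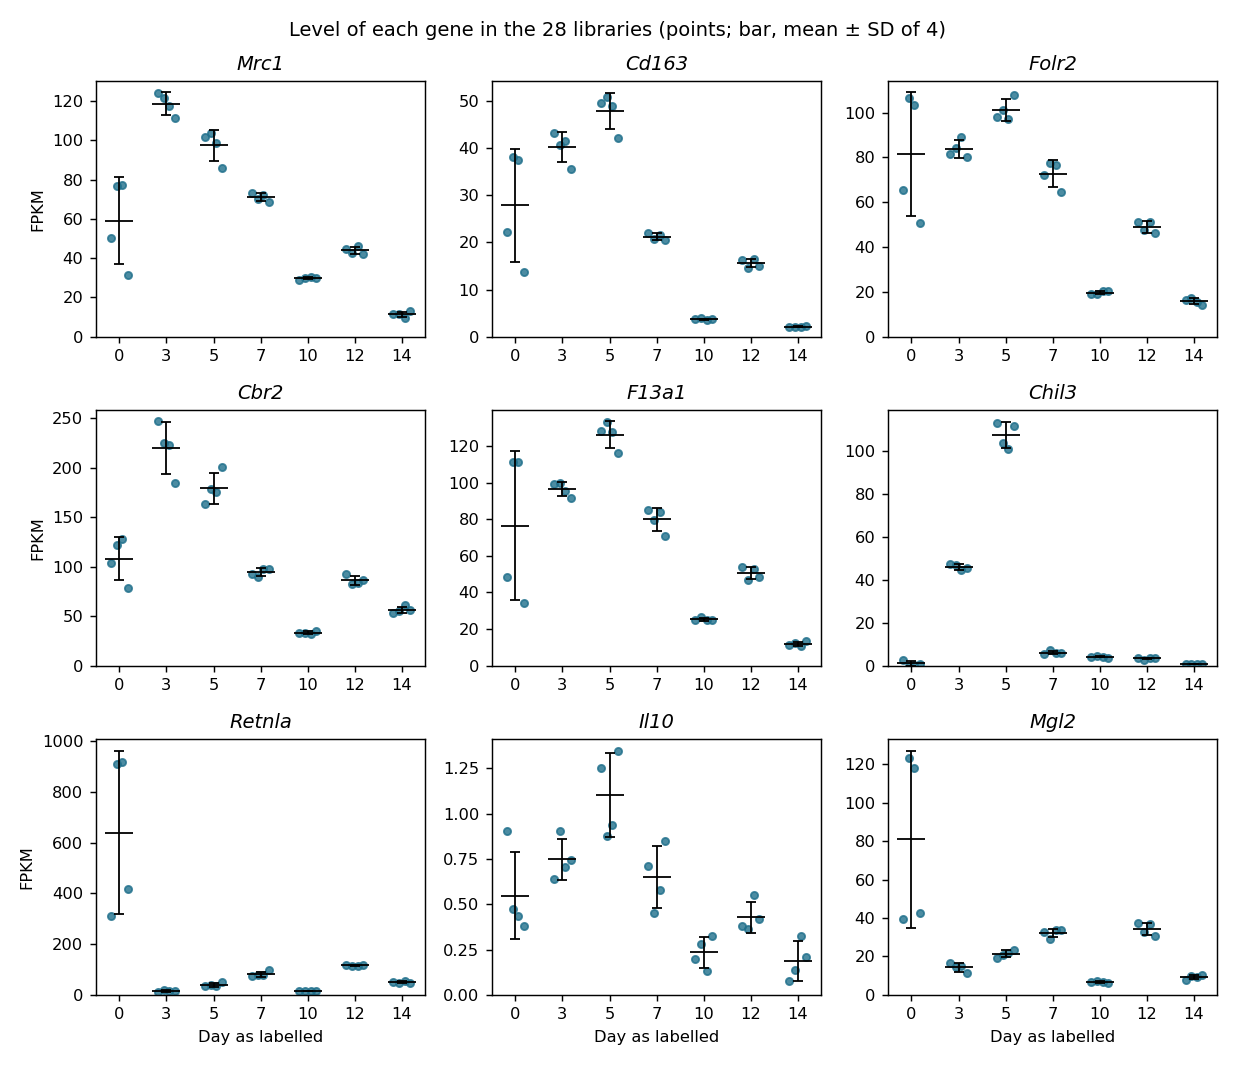
Level of each of the 9 genes in FPKM (vertical axis, 1 panel per gene) by labelled day, with a point for each of 4 libraries and a bar for their mean ± SD. Mrc1 and Cbr2 peak on day 3, Cd163, Folr2, F13a1, Chil3 and Il10 on day 5, and Retnla and Mgl2 on day 0, and 8 of the 9 are higher on day 12 than on day 10.

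Mrc1 had 50.2, 76.9, 77.2 and 31.6 FPKM in day 0 replicates 1 to 4. It had 124, 122, 118 and 111 on day 3 and 102, 104, 98.5 and 86.1 on day 5. The day 3 and day 5 libraries all lay above the highest day 0 library. Levels were then 73.1, 70.3, 72.4 and 68.7 on day 7, 28.9, 29.8, 30.5 and 30.0 at day 10, 44.8, 42.6, 46.2 and 42.3 on day 12 and 11.4, 11.5, 9.49 and 12.9 at day 14. Mrc1 thus rose on day 3 (1.07 ± 0.15, adjusted p = 7.14e-07, a 2.09-fold increase) and day 5 (0.77 ± 0.15, adjusted p = 9.12e-05). Day 7 overlapped day 0 (0.27 ± 0.15, adjusted p = 0.145), at -0.11 against replicates 2 and 3 and 0.79 (adjusted p = 8.06e-07) against replicates 1 and 4. Mrc1 fell below day 0 on day 10 (-1.04 ± 0.15, adjusted p = 2.24e-06) and further on day 14 (-2.51 ± 0.16, adjusted p = 2.64e-13), where all 4 libraries were under the lowest day 0 library. The day 12 libraries lay within the day 0 range, and the fall there (-0.57 ± 0.15, adjusted p = 0.00312) shrank to -0.05 (adjusted p = 0.766) against replicates 1 and 4 alone. The rise on day 3 held against either pair of controls, at 0.68 and 1.59.

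Cd163 had 22.1, 38.2, 37.5 and 13.7 FPKM on day 0, 43.3, 40.8, 41.5 and 35.7 at day 3 and 49.5, 51.0, 49.0 and 42.2 on day 5. The day 5 libraries all exceeded day 0, whereas the lowest day 3 library did not. Levels dropped to 22.1, 20.7, 21.6 and 20.4 on day 7 and 3.70, 3.86, 3.49 and 3.70 at day 10, stood at 16.2, 14.7, 16.4 and 15.1 on day 12, and ended at 2.12, 2.12, 2.08 and 2.22 at day 14. The span from day 5 to day 14 was 25.2-fold, wider than the 11.9-fold of Mrc1 from day 3 to day 14. Cd163 rose on day 3 (0.59 ± 0.17, adjusted p = 0.00334) and day 5 (0.82 ± 0.17, adjusted p = 0.000142). Against replicates 2 and 3 alone the day 3 value was 0.15 (adjusted p = 0.0508), so that call rests on replicates 1 and 4. Day 7 did not pass (-0.40 ± 0.17, adjusted p = 0.0516), with opposite signs against the 2 control pairs (-0.84 and 0.23). The falls on day 10 (-2.97 ± 0.19, adjusted p = 2.96e-13) and day 14 (-3.83 ± 0.19, adjusted p = 3.14e-15) held against both. The Cd163 to Mrc1 ratio of FPKM was 0.465 on day 0, 0.491 at day 5, 0.124 on day 10 and 0.354 at day 12.

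Folr2 had 65.6, 107, 103 and 50.9 FPKM on day 0, a range that took in every day 3 library (80.3 to 88.9) and every day 7 library (64.4 to 77.5). Day 5 had 98.2, 101, 97.1 and 108. Day 7 was below day 5 (-0.52 ± 0.14, adjusted p = 0.00472), while day 3 against day 5 did not pass (0.26 ± 0.14, adjusted p = 0.184). The call on day 5 (0.35 ± 0.14, adjusted p = 0.0295) depended on the controls: against replicates 2 and 3 alone the value was -0.01. On day 3 (0.09 ± 0.14, adjusted p = 0.559) the sign turned, from -0.27 against replicates 2 and 3 (adjusted p = 0.00292) to 0.57 against replicates 1 and 4. The late fall did not depend on them. Levels were 19.1, 18.8, 20.5 and 20.3 on day 10, 51.2, 47.6, 51.1 and 46.1 at day 12 and 16.2, 17.2, 15.5 and 14.1 on day 14. Folr2 fell on day 10 (-2.11 ± 0.14, adjusted p = 1.98e-12, 4.31-fold) and day 14 (-2.50 ± 0.15, adjusted p = 4.55e-14, 5.65-fold), below every day 0 library. Of the 50-base stretches of its transcripts, 52.6% also occur in the antisense gene Gm10602, and the strand setting of the counting is not given in the sources used here, so reads of the 2 genes may not have been told apart.

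Cbr2 had 104, 122, 128 and 78.8 FPKM on day 0, 247, 225, 223 and 185 at day 3 and 163, 179, 175 and 201 on day 5. Both wound days lay wholly above day 0, and overlapped each other. The step from day 3 to day 5 (-0.31 ± 0.10, adjusted p = 0.0242) lost its call in 8 of 20 alternatives, with adjusted p up to 0.0828. Cbr2 rose 2.12-fold by day 3 (1.08 ± 0.10, adjusted p = 2.96e-10) and held against either control pair, at 0.88 and 1.32. It had 93.0, 89.5, 97.3 and 97.7 on day 7, inside the day 0 range (-0.20 ± 0.10, adjusted p = 0.101, or -0.40 with adjusted p = 0.000135 against replicates 2 and 3 and 0.04 against replicates 1 and 4), and 33.3, 33.5, 31.6 and 34.9 on day 10. It then stood at 92.3, 82.4, 83.9 and 86.7 on day 12 and 53.3, 55.7, 60.9 and 56.4 on day 14. The day 12 fall (-0.47 ± 0.10, adjusted p = 0.000386) did not pass against replicates 1 and 4 (-0.23, adjusted p = 0.0537). Its lowest day was day 10, which lay below day 14 (0.69 ± 0.10, adjusted p = 2.20e-06 from day 10 to day 14). Against day 0, Cbr2 fell by 1.75 on day 10 (log2 scale, SE 0.10, adjusted p = 1.21e-13) and by 1.06 on day 14 (SE 0.10, adjusted p = 7.32e-10).

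F13a1 varied most between day 0 libraries among the 5 scavenger and resident genes, at 48.7, 111, 111 and 34.5 FPKM. It had 99.5, 99.6, 95.3 and 91.5 on day 3, 128, 133, 128 and 116 at day 5 and 84.9, 79.7, 84.0 and 70.8 on day 7. Only day 5 lay wholly above day 0 and passed the test (0.77 ± 0.21, adjusted p = 0.00225). That rise was 0.23 against replicates 2 and 3 and 1.64 against replicates 1 and 4, and it did not pass in a fit of the 8 libraries of the 2 days alone (adjusted p = 0.104). Day 3 (0.39 ± 0.21, adjusted p = 0.0936) and day 7 (0.06 ± 0.21, adjusted p = 0.822) did not. On day 3 the value was -0.15 against replicates 2 and 3 and 1.27 (adjusted p = 7.25e-12) against replicates 1 and 4. Against replicates 2 and 3 the day 7 value was -0.48 and against replicates 1 and 4 it was 0.93, both with adjusted p under 0.05. The gene had 25.1, 26.5, 24.9 and 24.7 on day 10, 53.7, 46.8, 52.8 and 48.7 at day 12 and 11.2, 12.4, 10.9 and 13.4 on day 14. It fell on day 10 (-1.65 ± 0.21, adjusted p = 2.34e-07) and day 14 (-2.80 ± 0.22, adjusted p = 1.45e-11) against either pair, but on day 12 (-0.74 ± 0.21, adjusted p = 0.00425) the difference did not pass against replicates 1 and 4, where it was 0.13 (adjusted p = 0.28). Markers of platelets, which also carry factor XIII A, had summed levels of 5.23 to 8.37 CPM on day 0 and 46.2 to 53.1 CPM on day 3, and their part was not tested.

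Chil3 moved over the widest range. Its counts on day 0 were 172, 4, 18 and 52, that is 2.86, 0.0642, 0.298 and 0.920 FPKM. Day 3 had 47.2, 46.8, 44.3 and 45.3 and day 5 113, 104, 101 and 112 FPKM, all far above day 0. By day 7 the level was back to 5.22, 7.11, 5.88 and 6.11, and it had 3.77 to 4.52 on day 10, 2.88 to 3.61 at day 12 and 0.559 to 0.836 on day 14. Chil3 rose 46.2-fold on day 3 (5.53 ± 0.36, adjusted p = 1.17e-13) and 107-fold at day 5 (6.74 ± 0.36, adjusted p = 5.94e-15), and it stayed above day 0 on day 7 (2.55 ± 0.36, adjusted p = 1.06e-06), day 10 (1.95 ± 0.37, adjusted p = 7.18e-05) and day 12 (1.56 ± 0.38, adjusted p = 0.00118). The size of each rise depended on the few day 0 counts: on day 5 it was 9.25 against replicates 2 and 3 and 5.84 against replicates 1 and 4. On day 14 (-0.69 ± 0.47, adjusted p = 0.204) the sign turned between the pairs, 1.82 (adjusted p = 1.47e-05) and -1.58 (adjusted p = 6.88e-06), and each passed. In fits of the 8 libraries of the 2 days alone, day 10 (adjusted p = 0.0618) and day 12 (adjusted p = 0.134) did not pass, and the day 12 libraries overlapped those of day 0 in CPM, though not in FPKM. The comparison within the wound avoids those counts: from day 5 to day 7 Chil3 fell 18.2-fold (-4.18 ± 0.30, adjusted p = 2.39e-11).

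Chil3 shares 26.9% of its 50-base transcript stretches with its paralog Chil4 (Ym2) and the gene Gm6522, so reads may be split between them. Chil4 had 0 counts in all 4 day 0 libraries, where a count of 0 allows up to 3, and 0 to 3 on day 3 and 2 to 11 on day 5, the days of the Chil3 peak. On day 7 it had 50, 85, 196 and 63, and at most 9 on later days. Its FPKM reached 0.267 of that of Chil3 on day 7 (mean of 4 libraries, range 0.159 to 0.543). Maturing neutrophils are also known to express Chil3, and the summed level of 10 neutrophil markers was 15.7 to 42.0 CPM on day 0, 4253 to 5374 at day 3, 1545 to 1952 on day 5 and 531 to 942 at day 7. Ly6g and Ngp, which define these cells, had 0 counts in all day 0 libraries. That sum was highest on day 3 and Chil3 on day 5, and the part of neutrophils was not tested.

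Against day 0, Retnla went the opposite way to Chil3 on days 3 to 12. It was the most abundant of the 9 in every day 0 library, at 312, 912, 919.5 and 416 FPKM. On day 3 it had 12.9, 18.5, 13.1 and 14.5 FPKM and on day 5 35.4, 38.7, 32.8 and 51.1. All later libraries lay below the lowest of day 0. Levels then stood at 73.6, 79.0, 78.3 and 96.4 on day 7, 14.6, 15.9, 16.6 and 16.1 at day 10, 116, 115, 116 and 119 on day 12 and 51.1, 48.0, 53.1 and 45.7 at day 14. Retnla fell 41.6-fold on day 3 (-5.38 ± 0.26, adjusted p = 2.97e-16), and fell on each later day too, least on day 12 (-2.60 ± 0.22, adjusted p = 2.62e-10, 6.07-fold) with day 10 close to day 3 (-5.39 ± 0.26, adjusted p = 1.59e-15, 42.0-fold). Each fall held against either control pair, with day 3 at -5.90 and -4.57. Within the wound it rose again from day 3 to day 5 (1.41 ± 0.24, adjusted p = 5.35e-05) and from day 5 to day 7 (1.00 ± 0.22, adjusted p = 0.000879), the days over which Chil3 peaked and fell. Its transcript shares no 50-base stretch with another gene.

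The resistin relatives took other courses. Retnlg, a neutrophil gene, had 1.36 ± 0.703 FPKM (SD, n = 4) on day 0 and 199 ± 15.9 at day 3, a rise of 7.23 ± 0.22 (adjusted p = 2.09e-20), and was below day 0 on day 14 (-5.34 ± 0.65, adjusted p = 4.96e-08). Retn, resistin itself and made by mouse fat cells, had 173 ± 17.8 FPKM on day 0 and 107 ± 3.09 on day 3, a fall of much smaller size (-0.63 ± 0.07, adjusted p = 1.30e-08). Retnla is also known from fat tissue and eosinophils. The sum of 6 adipocyte markers was 2215 to 2952 CPM on day 0 and 4991 to 6335 CPM on day 3, but its members went both ways, with 2 higher, among them Ucp1 of brown fat (10.32), and 2 lower, among them the leptin gene Lep (-1.25), and a median of -0.06. The part of fat tissue was not tested. Eosinophil markers were scarce, with a sum over 6 genes of 1.53 to 7.54 CPM on day 0 and 3.67 to 4.77 CPM on day 3. The sum was lower late, at 0.614 to 0.847 CPM on day 14. Ear6 was at 0 in all day 0 libraries. Within day 0 the eosinophil sum was higher in replicates 2 and 3, as Retnla was, and the part of eosinophils was not tested either.

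Mgl2, like Retnla, was highest on day 0. It had 39.5, 123, 118 and 42.7 FPKM on day 0 and 16.8, 14.7, 15.1 and 11.2 on day 3, with no overlap. Day 5 had 19.0, 20.9, 22.0 and 23.4 and day 7 32.5, 29.1, 33.8 and 33.5. These were still below the lowest day 0 library. Levels were 6.40, 7.04, 6.70 and 6.07 on day 10, 37.2, 32.8, 36.8 and 30.8 at day 12 and 7.81, 9.60, 9.47 and 10.0 on day 14. Mgl2 fell on day 3 (-2.43 ± 0.24, adjusted p = 8.59e-10, 5.39-fold), at day 10 (-3.68 ± 0.26, adjusted p = 2.91e-12, 12.8-fold) and on day 14 (-3.26 ± 0.25, adjusted p = 8.69e-12), and by less at day 7 (-1.33 ± 0.23, adjusted p = 2.14e-05) and day 12 (-1.38 ± 0.23, adjusted p = 1.73e-05). With replicates 1 and 4 as controls the falls on days 7 and 12 were -0.36 and -0.40, still past the threshold. Its neighbour and paralog Clec10a (CD301a), with which it shares part of the 13.1% of its stretches found in other genes, differed in course. Clec10a had 74.2, 83.1, 85.5 and 54.4 FPKM on day 0, 51.3, 49.1, 49.1 and 43.0 at day 3 and 76.7, 71.7, 78.6 and 88.2 on day 5. It fell on day 3 by 0.57 on the log2 scale (SE 0.09, adjusted p = 6.59e-06) and did not pass on day 5 (0.13, adjusted p = 0.252). The ratio of Mgl2 to Clec10a FPKM ranged from 0.533 to 1.48 in the divided day 0 libraries. Its means were 0.299 on day 3, 0.271 at day 5, 0.504 on day 7, 0.280 at day 10, 0.726 on day 12, inside the day 0 range, and 0.501 at day 14. Dendritic cell markers, some of which mark cells that carry CD301b, went both ways on day 3. Of the 9, 5 were lower (Xcr1 lowest, at -2.41) and 3 higher (Ccr7 highest, at 2.07), where 34.8% and 31.8% of all genes tested were. Their summed level on day 0 was higher in replicates 2 and 3 (193 and 191 CPM) than in replicates 1 and 4 (109 and 103 CPM), as was that of Mgl2. Taken singly the 9 markers did not share this direction, with 4 higher in replicates 2 and 3 and 4 lower.

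Il10 was scarce, with 6 to 111 counts per library, and counting error is part of its spread. The counts were 74, 40, 36 and 29 on day 0, 52, 74, 58 and 61 at day 3 and 106, 73, 78 and 111 on day 5. All but 1 of the day 5 libraries exceeded the highest day 0 count. They were 59, 38, 49 and 71 on day 7, 16, 23, 11 and 27 at day 10, 32, 31, 47 and 35 on day 12 and 6, 11, 27 and 17 at day 14. Il10 rose on day 5 (1.05 ± 0.30, adjusted p = 0.00425) and fell on day 10 (-1.28 ± 0.34, adjusted p = 0.00242) and day 14 (-1.67 ± 0.35, adjusted p = 0.000151). With replicates 1 and 4 as controls the rise on day 5 was 0.81 (adjusted p = 0.0598). Day 3 (0.50 ± 0.31, adjusted p = 0.151), day 7 (0.23 ± 0.31, adjusted p = 0.555) and day 12 (-0.50 ± 0.32, adjusted p = 0.206) did not pass. Without day 0 replicate 1 the day 3 value was 0.86 (adjusted p = 0.0178), past the threshold.

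Against day 0, 6 of the 9 genes changed on day 3 (4 higher, 2 lower), where 66.6% of all genes tested changed (31.8% higher, 34.8% lower). All 9 changed on day 5 (7 higher, 2 lower), against a background of 59.5% of all genes (29% higher, 30.6% lower). On day 7, 3 changed (1 higher, 2 lower), against 50.4% (25.6% higher, 24.8% lower). On day 10 all 9 changed (1 higher, 8 lower), against 50.4% (23.5% higher, 26.9% lower), and on day 12, 8 changed (1 higher, 7 lower), against 47.3% (21.7% higher, 25.6% lower). On day 14, 8 were lower and none higher, against 62.7% (28.2% higher, 34.5% lower), by DESeq2 as by edgeR and also at an unadjusted p under 0.05. The share on days 3 and 7 was near or below that of all genes. The 6 comparisons share the same control libraries. By the stricter criteria of the study (an absolute log2 fold change above 1.5 with p under 0.05 before adjustment) 3, 3, 2, 7, 2 and 7 of the 9 changed on days 3 to 14, against 18.9%, 13.9%, 9.4%, 9.47%, 7.39% and 14% of all genes. The median log2 fold change of the 9 was 0.50 on day 3, 0.77 at day 5, -0.17 on day 7, -1.75 at day 10, -0.74 on day 12 and -2.51 at day 14, while that of all genes tested stayed between -0.06 and 0.00. The controls bore on several of these counts. On day 3 replicates 2 and 3 as controls gave 3 higher and 3 lower (background 65.9%), and replicates 1 and 4 gave 6 higher and 2 lower (background 62.5%). On day 7 they gave 1 higher and 6 lower (background 49.4%) and 4 higher and 2 lower (background 51.2%), so the direction on day 7 rests on the controls. Day 12 had 1 higher and 7 lower (background 48.9%) against 1 higher and 4 lower (background 45%). Day 14 had 8 lower with Chil3 higher (background 63.5%), and all 9 lower with replicates 1 and 4 (background 57.2%). Either pair gave 6 higher and 2 lower on day 5 (background 59.3% and 58.3%) and 1 higher and 8 lower on day 10 (background 51% and 47.4%).

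The libraries of day 10 lay wholly below those of day 0 for 8 of the 9 genes and those of day 14 for 8, where 21.9% and 27.3% of all genes tested did so. The days are next set in order of level. Where no difference is stated, the pair did not pass with all 28 libraries fitted, which does not show equal levels. Day 5 against day 3 did pass in 1 of 20 alternatives for each of Mrc1, Cd163, Folr2, F13a1 and Mgl2. Mrc1 was highest on days 3 and 5, which did not differ, followed by days 7 and 0, which did not differ either. Days 12, 10 and 14 came next, each below the one before. Cd163 ran from days 5 and 3 through days 0 and 7 to days 12, 10 and 14 in the same way. Folr2 ran from day 5 through days 3 and 0 to day 7, and F13a1 from day 5 through days 3 and 7 to day 0, with no difference between neighbours in these orders, though day 7 was below day 5 in both. They then fell in steps through days 12, 10 and 14. Cbr2 was ordered day 3, day 5 (a step whose call was lost in some alternatives), days 0 and 7 together, day 12, day 14 and day 10. Chil3 ran from day 5 to day 3, then to days 7, 10 and 12, with no difference between neighbours though day 12 was below day 7 (-0.99, adjusted p = 0.00974), and to days 0 and 14. Retnla ran from day 0 to days 12 and 7, then to days 14 and 5, and last to days 3 and 10. Mgl2 ran from day 0 to days 7, 12, 5 and 3, these 4 with no difference between neighbours though day 7 was above day 3 (1.10, adjusted p = 0.000292), and to days 14 and 10. For Il10 no neighbouring pair in its order differed. Beyond the comparisons given above and below, these orders draw on pairs in which the share of all genes tested that differed was 50% for day 7 against day 3, 59.1% for day 10 against day 3, 57.6% and 46.3% for day 12 against days 5 and 7, and 67%, 65.5%, 61.6% and 54% for day 14 against days 3, 5, 7 and 10.

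Comparisons between neighbouring days within the wound do not use the day 0 levels. The day 0 libraries still enter the estimate of spread that all days share. Calls can therefore differ in fits of the 8 libraries of 2 days alone, given in the closing section. From day 3 to day 5, 3 of the 9 changed (background 24.3%, 12.9% higher, 11.4% lower): Chil3 (1.21) and Retnla (1.41) rose and Cbr2 fell (-0.31). From day 5 to day 7, 8 changed (background 28.5%, 13.9% higher, 14.6% lower), 7 of them lower, with only Retnla higher. The fall of Il10 among them (-0.81 ± 0.30, adjusted p = 0.0429) lost its call in 10 of 18 alternatives, with adjusted p up to 0.132. That of Mrc1 (-0.50, adjusted p = 0.0136) lost its call in 2 of 20 alternatives, with adjusted p up to 0.0692. From day 7 to day 10, 8 fell and none rose, by DESeq2 too and at an unadjusted p under 0.05 (background 32.3%, 14.3% higher, 18% lower). Cd163 (-2.58 ± 0.18, adjusted p = 3.39e-11), Retnla (-2.42 ± 0.24, adjusted p = 7.68e-09) and Mgl2 (-2.35 ± 0.25, adjusted p = 2.59e-08) fell by most, and the libraries of all 9 genes lay wholly lower on day 10, as 20.1% of all genes tested did. The pan-macrophage sum was between 4580.0 and 4853 CPM on day 7 and between 2843 and 3106 CPM on day 10. The neutrophil sum went from 531 to 942 CPM down to 223 to 247 CPM, and the mast cell sum from 452 to 515 down to 288 to 316 CPM. The skeletal muscle sum went up, from 3849 to 4209 to 7314 to 9356 CPM. On day 5 the pan-macrophage and neutrophil sums had been 6536 to 7201 and 1545 to 1952 CPM. The part of these cells was not tested.

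From day 10 to day 12 the direction turned: 7 of the 9 rose and none fell by edgeR over all libraries or DESeq2, nor at an unadjusted p under 0.05 (background 39.4%, 18.7% higher, 20.7% lower). Retnla rose 6.91-fold (2.79 ± 0.24, adjusted p = 2.40e-10), Mgl2 4.94-fold (2.30 ± 0.25, adjusted p = 1.63e-08) and Cd163 3.98-fold (1.99 ± 0.18, adjusted p = 7.95e-10). Cbr2 (1.28), Folr2 (1.23), F13a1 (0.91) and Mrc1 (0.47) rose by less. Il10 (0.78, adjusted p = 0.0715) and Chil3 (-0.39, adjusted p = 0.351) did not pass. The Chil3 libraries lay wholly lower on day 12, and in a fit of the 8 libraries alone that fall passed (adjusted p = 0.00784). The summed level of the 9 genes was between 370.3 and 392 CPM on day 10 and between 737 and 829 CPM on day 12. That of the 16 pan-macrophage genes was between 2843 and 3106 CPM and then between 2429.9 and 2718 CPM. The sum of 18 other resident macrophage genes was between 2230 and 2379 CPM on day 10 and between 2604 and 3004 CPM on day 12. Lyve1, one of these and a receptor of resident macrophages and lymphatic endothelium, had 4.27, 4.80, 4.84 and 4.84 FPKM on day 10. It had 15.6, 13.6, 14.3 and 13.3 on day 12. Other markers moved over the same 2 days. The lymphatic endothelial sum was between 167 and 193 CPM on day 10 and between 299 and 388 CPM on day 12, and the mast cell sum between 288 and 316 and then between 463 and 584 CPM. The fibroblast sum was between 39349.6 and 44739.8 and then between 28730.1 and 33323 CPM, and the skeletal muscle sum between 7314 and 9356 and then between 5378 and 6055 CPM. The neutrophil sum, the one that moved most, was between 223 and 247 and then between 21.1 and 23.8 CPM, and the adipocyte sum between 3443 and 3682 and then between 2266 and 2394 CPM. Their part in the result was not tested. From day 12 to day 14 all 9 genes fell (background 45.2%, 19.9% higher, 25.3% lower), from -0.59 for Cbr2 to -2.85 for Cd163, and all libraries of day 14 lay below those of day 12, as in 26% of all genes tested. Over the same step the pan-macrophage sum went down to between 1166 and 1242 CPM, the fibroblast sum to between 11729 and 14011, the lymphatic endothelial sum to between 114 and 142 and the mast cell sum to between 174 and 236 CPM, and their part was not tested.

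**Figure D3:**
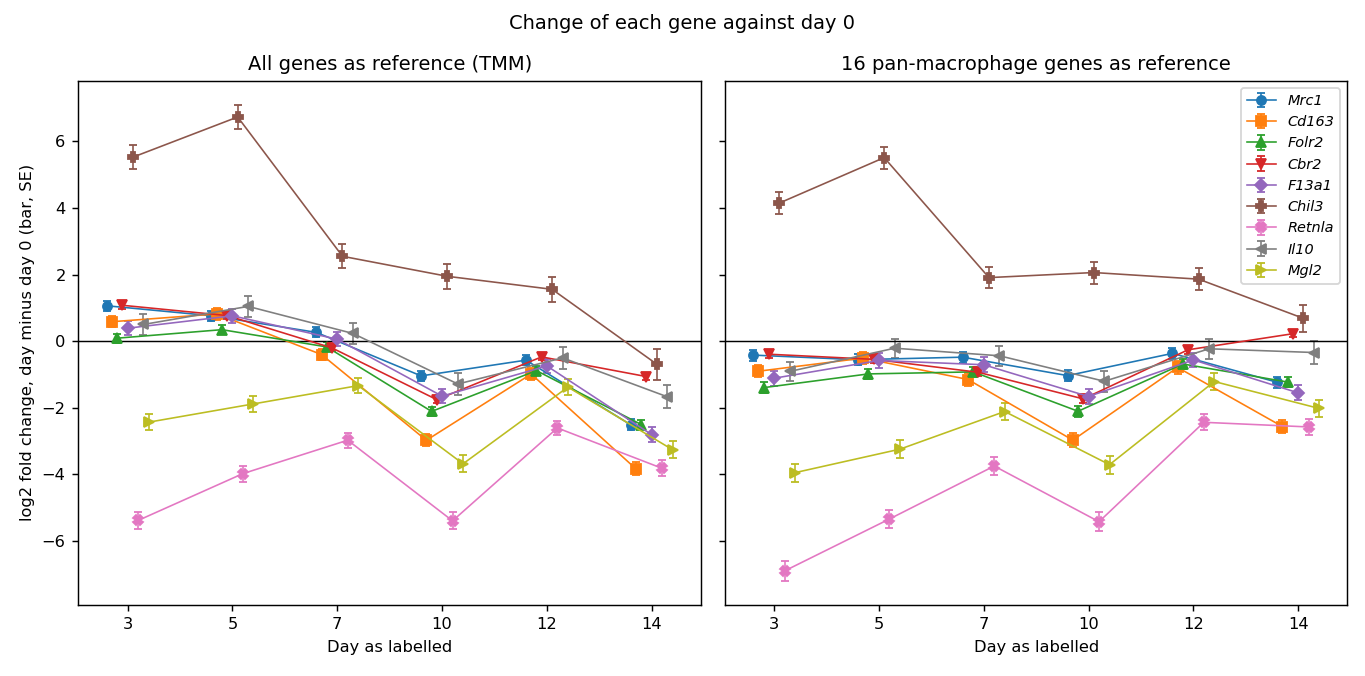
Log2 fold change of each gene against day 0 (vertical axis, bar for SE) by labelled day, from edgeR on all 28 libraries, as measured in 1 panel and relative to 16 pan-macrophage genes in the other. Chil3 lies above 0 to day 12, Retnla and Mgl2 below 0 on every day, and 8 of the 9 genes lie higher on day 12 than on day 10 in the first panel.

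The mixture of the 9 transcripts changed with time. Of their summed FPKM, Retnla made up 58.3% ± 6.67 (SD, n = 4) on day 0 and 2.33% ± 0.426 on day 3. Cbr2 led on day 3 with 34.6% ± 1.91, followed by Mrc1 with 18.7% ± 0.433. Chil3 went from 0.151% ± 0.203 on day 0 to 14.9% ± 0.807 at day 5 and 1.32% ± 0.182 on day 7. Retnla was back to 17.8% ± 2.21 on day 7 and 29.1% ± 1.08 on day 12, when it again led the 9 genes. On day 14 Cbr2 (35.9% ± 1.26) and Retnla (31.4% ± 1.79) led. The ratio of Retnla to Mrc1 FPKM was 10.8 on day 0 (range 6.22 to 13.1), 0.124 at day 3, 1.15 on day 7, 0.530 at day 10 and 4.45 on day 14. A share moves when any of the 9 moves and is not a level.

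**Figure D4:**
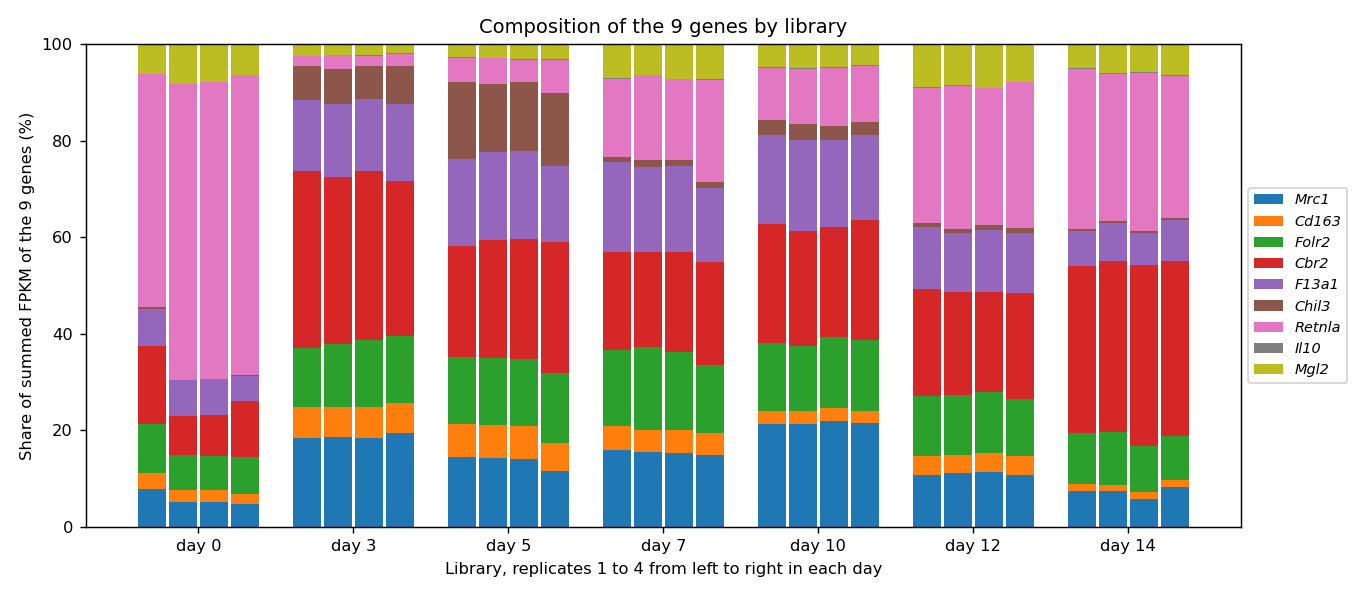
Share of each gene in the summed FPKM of the 9 genes (vertical axis, percent) in each of the 28 libraries, 4 to a labelled day. Retnla takes the largest share in all day 0 libraries and Cbr2 in all day 3 libraries, and the 4 libraries of a later day resemble each other more than those of day 0 do.

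To set the 9 genes against macrophage RNA in general, each was also measured relative to the mean log2 CPM of 16 pan-macrophage genes (Adgre1, Csf1r and Cd68 among them). Adgre1 (F4/80) itself had 39.1, 34.8, 36.5 and 23.6 FPKM on day 0, 61.3, 62.8, 58.5 and 58.6 at day 3 and 7.71, 9.47, 8.44 and 9.39 on day 14. Of the 16, 15 rose on day 3 and 1, Mertk, fell (though not against replicates 2 and 3, at -0.03), 15 rose at day 5, and 15 fell on day 14. Of all genes tested, 31.8% rose on day 3, 29% rose at day 5 and 34.5% fell on day 14. On this scale 9 of the 9 genes changed on day 3 (1 higher, 8 lower) and 8 on day 5 (1 higher, 7 lower), shares near those of all genes tested (92.5% and 91%, almost all lower), since the reference rose. With replicates 2 and 3 as controls these counts were the same as with all 4 (background 91.9% and 90.6%), but with replicates 1 and 4 they were 2 higher and 4 lower on day 3 (background 89.6%) and 3 higher and 3 lower at day 5 (background 87%), with Cd163 at 0.30 and F13a1 at 0.47 on day 5. With Adgre1, Csf1r, Cd68 and Mertk alone as the reference, 5 changed on day 3 (2 higher, 3 lower) and 4 on day 5 (1 higher, 3 lower), against 85.1% and 85.3% of all genes. Chil3 alone rose beyond the 16 genes with all day 0 libraries as control, by 4.15 ± 0.32 for day 3 (adjusted p = 3.35e-13) and by 5.52 ± 0.33 for day 5 (adjusted p = 1.32e-15). Mrc1, which had risen in CPM, was lower than the reference on day 3 (-0.41 ± 0.17, adjusted p = 0.0209), as was Cbr2 (-0.39 ± 0.11, adjusted p = 0.00204). Both signs turned with the 4-gene reference (0.29 and 0.30), and Mrc1 also with replicates 1 and 4 as controls (0.27), so no direction is given for them relative to macrophage RNA on that day. Cd163 (-2.97 ± 0.20), Folr2 (-2.10 ± 0.16) and Mgl2 (-3.70 ± 0.27) were below the reference on day 10, when 8 of the 9 were lower and 22.2% of all genes tested were (44.6% changed in either direction). Either pair gave the same counts there (background 49.9% and 43.4%). On day 7, 8 changed (1 higher, 7 lower, background 79.8%), as with replicates 2 and 3 (background 83.2%). With replicates 1 and 4 as controls these were 3 higher and 5 lower (background 73.1%), with Mrc1 at 0.21 and F13a1 at 0.34. On day 12, 6 changed (1 higher, 5 lower, background 48.6%), 8 with replicates 2 and 3 (1 higher, 7 lower, background 47.7%) and 4 with replicates 1 and 4 (3 higher, 1 lower, background 53.7%). On day 14 the reference had fallen and 78.8% of all genes tested were higher relative to it, but 6 of the 9 were lower and none higher, with background 5.66% lower (84.5% in either direction). These were Mrc1 (-1.23 ± 0.17), Cd163 (-2.56 ± 0.20), Folr2 (-1.22 ± 0.16), F13a1 (-1.55 ± 0.23), Retnla (-2.57 ± 0.25) and Mgl2 (-2.02 ± 0.26). With either control pair the count was 6 lower and 1 higher, Chil3 with replicates 2 and 3 (background 7.44% lower, 83% in either direction) and Cbr2 with replicates 1 and 4 (background 4.4% lower, 85.1% in either direction).

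The pathway that drives alternative activation was followed through 27 genes, 25 of which were tested. Its ligands were scarce. Il4 had at most 19 counts in any library and was left out by the filter, and Il13 had 1 to 18. Il4ra, the receptor chain they share, had 14.3, 12.9, 12.0 and 9.33 FPKM on day 0 and 116, 115, 113 and 109.6 on day 3, a rise of 3.28 ± 0.09 (adjusted p = 1.50e-21), and was at 21.0 to 23.6 by day 7. Stat6 rose by 0.51 ± 0.05 on day 3 (adjusted p = 2.93e-09). Of the 25, 17 rose and 5 fell on day 3 (median 0.64), 8 rose and 11 fell at day 10, and 3 rose and 19 fell on day 14 (median -0.81). The shares of all genes tested were 31.8% higher, 34.8% lower on day 3, then 23.5% higher, 26.9% lower at day 10, and 28.2% higher, 34.5% lower on day 14. The day 10 balance became 8 higher and 8 lower with replicates 1 and 4 as controls. Ccl24, an eosinophil chemoattractant and STAT6 target, was the lowest of them on day 3, at -2.35 ± 0.30 (adjusted p = 8.38e-08), and fell on day 14 too (-3.44 ± 0.32, adjusted p = 3.11e-10). Genes of this list thus moved in both directions on the same day, as Chil3 and Retnla did.

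Around Il10, 12 genes of its receptor, signalling and regulation were listed. On day 3, 10 rose and none fell (median 1.17), and on day 14, 10 fell and none rose (median -0.36), where 31.8% of all genes tested rose at day 3 and 34.5% fell on day 14. Il10ra, the ligand-binding receptor chain, rose on day 3 (1.58 ± 0.11, adjusted p = 8.73e-13) and fell on day 14 (-1.37 ± 0.12, adjusted p = 5.84e-11). Socs3, a feedback inhibitor induced by many cytokines, rose most on day 3 (2.86 ± 0.11, adjusted p = 1.14e-18). Etv3, a repressor downstream of IL-10, was lowest at 0.01 (adjusted p = 0.866).

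Of 18 other genes of resident macrophages, 8 rose and 8 fell on day 3 (median -0.19), 4 rose and 13 fell at day 10, and 1 rose and 16 fell on day 14 (median -1.89). Of all genes tested, 31.8% rose and 34.8% fell on day 3. At day 10 these shares were 23.5% and 26.9%, and on day 14 they were 28.2% and 34.5%. Timd4 (TIM-4), a receptor for dying cells, fell on day 3 (-1.65 ± 0.32, adjusted p = 5.68e-05). Lyve1 fell less (-0.56 ± 0.16, adjusted p = 0.00392). Both falls rested on replicates 2 and 3: against replicates 1 and 4, Timd4 was -0.61 (adjusted p = 0.0561) and Lyve1 0.05 (adjusted p = 0.706). Of the 18, 6 rose and 9 fell on day 3 against replicates 2 and 3 (background 65.9%). Against replicates 1 and 4, 9 rose and 1 fell (background 62.5%), so the balance on that day rests on the controls. Hmox1, the haem oxygenase that breaks down the haem Cd163 brings in, rose most (2.68 ± 0.09, adjusted p = 1.27e-19). On day 14 the iron exporter gene Slc40a1 was the 1 that rose (1.25 ± 0.12, adjusted p = 7.55e-10), and Fcna, a ficolin of macrophages, was lowest (-3.78 ± 0.27, adjusted p = 2.92e-12). Of 28 paralogs of the 9 genes, 22 were tested, with 9 higher and 7 lower on day 3 and 5 higher and 10 lower on day 14, shares near the 66.6% and 62.7% of all genes tested that changed. Asgr2, a lectin relative of Mgl2, was lowest on day 3 (-2.42 ± 0.37, adjusted p = 1.64e-06), and the epidermal transglutaminase Tgm3, a relative of F13a1, highest on day 14 (3.10 ± 0.21, adjusted p = 5.20e-13).

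Markers of other cells gave the setting in which the 9 genes were measured. Of all genes tested, 31.8% rose and 34.8% fell on day 3, and 28.2% rose and 34.5% fell on day 14. The counts below are to be read beside these shares, and those of adipocyte markers on day 3 were near them. Of 14 genes of inflammatory macrophages and monocytes, 12 rose and 1 fell on day 3, and 2 rose and 8 fell on day 14, with sums of 194 to 266, 1600.2 to 1826 and 90.1 to 109.6 CPM on days 0, 3 and 14. Of 10 neutrophil markers 9 rose on day 3, and 1 rose and 4 fell on day 14. On days 3 and 14, 3 and 1 of 9 dendritic cell markers rose and 5 and 7 fell, and 1 and 1 of 6 mast cell markers rose and 4 and 4 fell. Of 7 lymphocyte markers tested, 2 rose and 1 fell on day 3 and 4 fell at day 14, of 4 eosinophil markers tested 1 and 3 fell, and of 5 platelet markers 3 rose on day 3, with 2 higher and 1 lower at day 14. Of 6 lymphatic endothelial markers 1 rose and 4 fell on day 3 and 6 fell on day 14. Of 6 adipocyte markers 2 rose and 2 fell on day 3 and 4 rose on day 14. All 5 skeletal muscle markers were lower on each of the 6 later days. Of 5 fibroblast markers 1 rose and 3 fell on day 3 and 5 fell at day 14, and of 5 keratinocyte markers (the check of the labelled skin, present with sums of 4772 to 8216 CPM on day 0) 4 fell at day 3 and 3 on day 14. These counts moved with the controls. With replicates 1 and 4, day 3 had 4 fibroblast markers higher and none called lower, 5 lymphocyte markers higher and 1 lower, 4 dendritic cell markers higher and 3 lower, and 2 eosinophil markers higher and 1 lower, and only 2 fibroblast markers were lower on day 14. Of all genes tested, 62.5% then changed on day 3 and 57.2% on day 14. How much these cells contributed to the 9 genes was not tested.

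Across the 28 libraries, which share the day structure and the day 0 division, the likeness of the genes was described by Pearson's r of log2 CPM. Cd163 and Folr2 ran together most closely (r = 0.99), with Cd163 and F13a1 at 0.98 and Mrc1 and F13a1 at 0.98. Retnla and Mgl2 had r = 0.85 with each other, and Mgl2 had 0.71 with Folr2. Retnla had r = 0.00 with Mrc1 and -0.58 with Chil3. Over the 24 libraries of days 3 to 14 alone, Mgl2 ran as closely with Folr2 (0.73) and Cd163 (0.70) as with Retnla (0.72). Chil3 then had 0.90 with Mrc1 (from 0.67 with day 0) and -0.32 with Retnla. Among all genes tested with a mean of at least 1 CPM, those most like each gene were Pik3cg for Mrc1 (r = 0.991), Folr2 for Cd163 (0.989), Cd163 and then Ccl8 for Folr2 (0.978 for the latter), Sema4a for Cbr2 (0.986), Pid1 for F13a1 (0.982), Slc11a1 for Chil3 (0.959), Lyz1 for Retnla (0.955), C1qa for Il10 (0.906) and Slco2b1 for Mgl2 (0.972). P2ry12 and Dab2 followed for Mrc1, Alox5 and F13a1 for Cd163, Alox5 for Folr2, Ap1b1 and Gldc for Cbr2, Ccl8 for F13a1, F10 and Spsb1 for Chil3, Tprgl and Cgn for Retnla, Epsti1 and Gbgt1 for Il10, and Krt80 and Skint3 for Mgl2.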

How the data were processed

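RNA of 28 skin samples was extracted with TRIzol and sequenced as mRNA libraries (VAHTS Universal V6). The authors deposited raw read counts per gene and FPKM values, made from reads trimmed with fastp and placed on mm10 (R 3.2.0 is also named in the submitters' processing notes). The aligner, counter, annotation and strand setting are not given in the sources used here. The deposited FPKM equalled count over length and total to within 0.1% for 17194 of 17194 genes checked. Counts were fitted in edgeR 4.0.16 (R 4.3.3): TMM factors, filterByExpr, a quasi-likelihood test on all 28 libraries in 1 fit (21 residual degrees of freedom), and Benjamini-Hochberg adjustment over 18107 genes, called at an adjusted p under 0.05. Because 1 estimate of spread serves all days, standard errors understate that of day 0 and can overstate that of the later days. Values relative to macrophage RNA used the mean log2 CPM of 16 pan-macrophage genes as an offset. Alternatives were other scaling factors, filters and tools (DESeq2 1.42.0, limma 3.58.1 on log2(FPKM + 1) and log2(FPKM + 0.1)), a replicate block, Xist level as a covariate, the 8 libraries of 2 days alone, and leaving out libraries. The members and the 17 gene lists were chosen with earlier results of these data known. Named were the 9 genes, the highest and lowest gene of each pathway list on days 3 and 14, a few receptors and markers, and the 3 genes most like each member. Retn, Il4, Il13, Ngp and Ear6 were named after their values were seen. A few genes that the rule would name are not reported here. Planned protein comparisons were replaced by shared 50-base stretches of GENCODE vM21 transcripts. Scripts were tested on simulated data.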

Additional observations from a re-analysis of the deposited data

How the results depend on the processing

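Against day 0, 1109 of 1170 recomputed values for single genes kept their direction and side of the threshold, and 34 of 43 calls held in every alternative. Between neighbouring days 852 of 885 did, with no reversal, and relative to pan-macrophage genes 729 of 798. With upper quartile factors Folr2 on day 3 was -0.0046, and with limma on log2(FPKM + 0.1) Chil3 on day 14 was 0.24 and 1 gene changed from day 3 to day 5. In fits of 8 libraries alone, 5 genes changed on day 12 against day 0 and 8 from day 3 to day 5, and 16 genes of the lists were higher on day 12. By the criteria of the study 3 changed on day 3, 3 on day 5, 2 on day 12, 0 from day 3 to day 5 (3 by edgeR at adjusted p), 1 from day 5 to day 7 and 3 from day 10 to day 12.

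With Adgre1, Csf1r, Cd68 and Mertk alone as the reference, 5 genes changed relative to it on day 3 and 4 on day 5, with Mrc1 at 0.29 and Cbr2 at 0.30 on day 3 and Il10 at 0.22 on day 5. With day 0 replicates 2 and 3 alone as control, Folr2 was -0.27 and F13a1 -0.15 on day 3, Folr2 was -0.011 on day 5, 7 genes changed on day 7 with Mrc1 at -0.11 and F13a1 at -0.48, Chil3 was 1.82 on day 14, and Cbr2 was -0.11 relative to pan-macrophage genes on day 14. With replicates 1 and 4 alone, 6 genes changed on day 7 (Cd163 0.23, Folr2 0.31, Cbr2 0.035) and 5 on day 12 (F13a1 0.13). Relative to pan-macrophage genes Mrc1 was then 0.27, 0.13, 0.21 and 0.32 on days 3, 5, 7 and 12, Cd163 0.30 and 0.016 on days 5 and 12, F13a1 0.47, 0.34 and 0.49 on days 5, 7 and 12, Cbr2 0.12 on day 12 and Chil3 -0.12 on day 14. The cause of these shifts was not tested.

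Leaving out 1 library at a time moved Chil3 on day 14 between -1.10 and 0.62, F13a1 on day 7 between -0.18 and 0.30, Folr2 on day 3 between -0.077 and 0.25, and the count on day 7 between 3 and 6. The outer values came without day 0 replicate 1 (Chil3 0.62) and replicate 4 (F13a1 -0.18, Folr2 -0.077 and 6 genes). Libraries with the same replicate number did not deviate together (1 of 44 pairs over 0.1, range -0.076 to 0.18), so they share only a number. With a replicate block 169 of 171 results kept their call, and Il10 from day 5 to day 7 (-0.82, adjusted p = 0.0525) and F13a1 relative to pan-macrophage genes on day 12 (-0.49, adjusted p = 0.0624) lost it. Counts were low, and precision least, for Il10, Chil3 on day 0, and the ligands Il4 and Il13.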
